A study of Mus musculus with 12 samples.

Results

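The proteasome subunit genes were taken as every gene of the deposited tables whose symbol is Psma, Psmb, Psmc, Psmd, Psme, Psmf or Psmg followed by a number, and 48 of the 24279 genes have such a symbol. The name pattern covers the subunits, activators, an inhibitor and assembly chaperones of the proteasome, and it does not use any measured value. Psme2b, a near-identical copy of Psme2 with 11 to 46 counts per library, and Psmc3ip fall outside the pattern, so reads of Psme2 may be shared with Psme2b. Of the 48 genes 46 passed a filter on low counts and were tested; Psmb9, with 1 to 11 counts per library, and Psmb11, with 0 to 3, did not.

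The study measured polyadenylated RNA of primary mouse embryonic fibroblasts, connective tissue cells grown from embryos at E 12.5, in 4 groups of 3 libraries. Moderate groups came from mice fed 2 ppm folic acid and from medium with 225 ng/mL, and fortified groups from mice fed 10 ppm and from medium with 3600 ng/mL. At each level the cells were wild type or homozygous for the Rsg1L3P allele (genotype Rsg1L3P/L3P, here called mutant), a change in Rsg1, which encodes a GTPase-like protein needed to build primary cilia. All cells were from F3 mice. Diet and medium changed together and cannot be told apart. Whether each library stands for an embryo of its own is not stated in the labels. The p-values measure the spread between these libraries, which may in part be technical. Within each wild type group, Xist and Y chromosome counts, given below, differed between libraries, so these were not all repeats of a single embryo.

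Depth was 39339190 to 48475963 estimated counts per library, and Rsg1 had 19 to 54 counts in each, which by itself does not check the allele. Fibroblast genes were abundant in all 12 libraries, with Vim at 2523 to 4886 TPM (a level scaled to transcript length and to the library total) and Col1a1 at 540 to 6067 TPM. Genes of other cell types were present too: summed over their lists, skeletal muscle genes reached 351 to 3544 TPM, neuronal genes 30.8 to 238 and leukocyte genes 12.6 to 87.4, with the leukocyte marker Ptprc at 0.178 to 2.07 TPM. The libraries fortified mutant 2, fortified mutant 3 and moderate wild type 1 held the highest muscle and neuronal sums and are left out together in an alternative below. All 6 mutant libraries carried Xist at 1000 counts or more, against 2 of 6 wild type. At least 10 counts of Y chromosome genes were found in 3 wild type and 0 mutant libraries. Fortified wild type 2 had neither, with 9 Xist and 0 Y chromosome counts. Fetal sex and genotype therefore cannot be told apart in full. In such bulk RNA, fewer cells of a type and less RNA per cell cannot be told apart.

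The proteasome degrades proteins marked with ubiquitin. Its barrel-shaped core particle stacks outer rings of alpha subunits, which gate entry, on inner rings of beta subunits, some of which cut proteins. A regulatory particle caps the core: its base holds ATPases that unfold the substrate and thread it into the core, and its lid removes ubiquitin. Cells exposed to interferon replace the cutting subunits with inducible ones, forming the immunoproteasome, which favours peptides for antigen presentation. When proteasome activity falls short, the transcription factor Nfe2l1 is known to raise the subunit genes together through antioxidant response elements in their promoters, and CCAAT boxes, bound by the NF-Y complex, have also been described there.

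RefSeq promoter sequences of GRCm38, from 250 bases before to 50 after the start site, were at hand for 40 of the 48 genes. Windows around a CCAAT box are shown for 3 of the 4 alpha ring genes that rose in the comparison described first below. Capitals mark the motif, and the sequences run 5′ to 3′ on the strand of the gene.
Psma2: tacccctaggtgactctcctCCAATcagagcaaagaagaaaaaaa
Psma3: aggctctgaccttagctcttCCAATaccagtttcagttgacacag
Psma7: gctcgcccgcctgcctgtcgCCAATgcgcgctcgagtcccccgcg
They lie at chr13:14613168-14613212 on the plus strand, chr12:70974464-70974508 on the plus strand and chr2:180042636-180042680 on the minus strand. CCAAT, searched on both strands, was found in 5 of 7 alpha ring promoters and in 14 of 40 promoters of the whole group (35%), against 41.1% of 27025 genes. In the alpha ring, Psma5 rose in that comparison and had no match, while Psma1 and Psma6 had a match and did not pass. The antioxidant response element core, TGACNNNGC on either strand, is shown for the catalytic subunits Psmb5 and Psmb6 and the ATPase Psmc6, where the letters read on the opposite strand. It overlaps no CCAAT box in these windows.
Psmb5: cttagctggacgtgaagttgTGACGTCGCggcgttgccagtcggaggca
Psmb6: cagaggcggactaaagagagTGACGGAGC
Psmc6: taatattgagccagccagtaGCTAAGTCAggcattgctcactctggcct
These are at chr14:54618014-54618062 on the minus strand, chr11:70525328-70525356 on the plus strand and chr14:45329577-45329625 on the plus strand. The element was found in 6 of 40 promoters (15%), against 13.99% of all genes. GAAANNGAA, a shortened interferon-stimulated response element, was found on either strand in 7 of 40 promoters (17.5%), against 9.76%. A match of letters is a description and not a binding site, and these shares lie on either side of the background.

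The constitutive particle was among the well-expressed genes of these cells, and the 48 genes together took 0.761 to 1.00% of all TPM per library. Alpha ring genes had median levels over the 12 libraries from 155 TPM (Psma5) to 433 TPM (Psma7), and constitutive beta ring genes from 249 TPM (Psmb5) to 408 TPM (Psmb1). The base ATPases ran from 176 TPM (Psmc5) to 302 TPM (Psmc3), and the other base and lid subunits from 115 TPM (Psmd12) to 279 TPM (Psmd8). Neighbouring genes in this order overlapped across libraries, while some genes further apart in a ring did not. Psma5 had 109 to 193 TPM and Psma7 317 to 515 TPM, and Psmb5 had 206 to 324 TPM and Psmb6 338 to 467 TPM. Assembly factors were lower: the base chaperones Psmd9, Psmd10 and Psmd5 had medians from 25.2 to 66.6 TPM, and the core chaperones Psmg1 to Psmg4 medians from 32.3 TPM (Psmg4) to 49.7 TPM (Psmg1). Among activators and the inhibitor, medians went from 17.5 TPM for Psmf1, an inhibitor of the core in vitro, to 128 TPM for Psme3, a nuclear activator.

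The inducible and tissue-restricted subunits were low. Psmb10 had a median of 13.3 TPM, Psmb8 of 1.39 TPM and Psmb9 of 0.364 TPM. Psma8, the alpha subunit of the testis, had a median of 0.396 TPM, and Psmb11, the catalytic subunit of the thymus, had 0 in its median library and 9 counts in all libraries together.

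**Figure D1:**
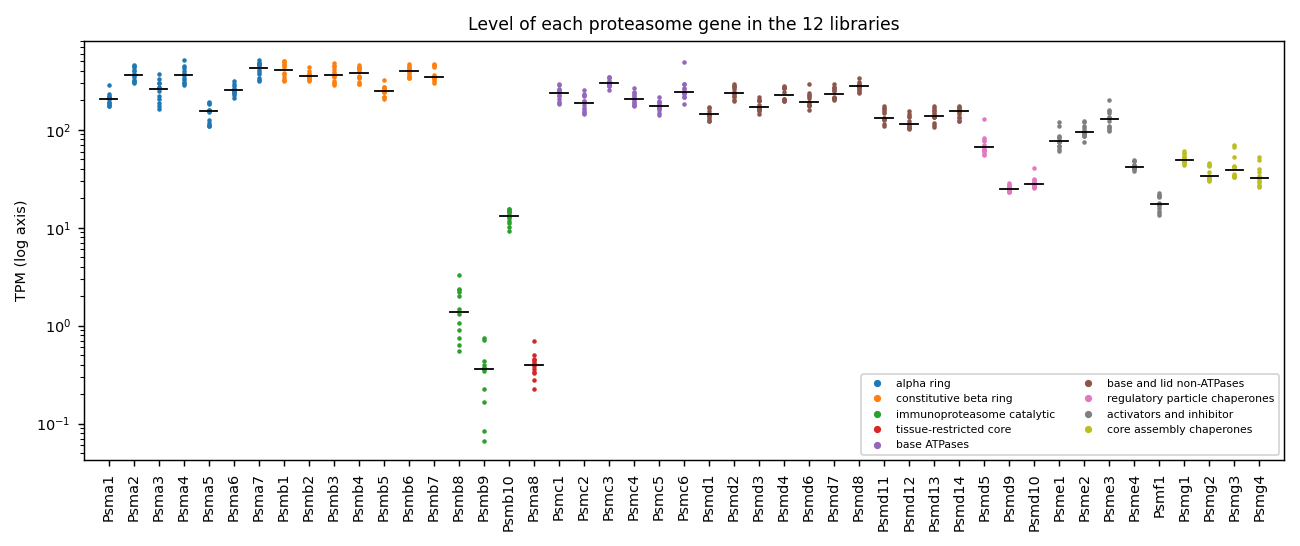
TPM of 47 proteasome genes (log axis) in the 12 libraries, as points coloured by class, with a black bar at the median; Psmb11, at 0 in most libraries, is not drawn. Constitutive core and regulatory particle genes lie within 103 to 519.7 TPM, and Psmb8, Psmb9 and Psma8 lie far below.

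The change with fortified folic acid in mutant cells is given first, since among the comparisons within 1 genotype or 1 folic acid level proteasome genes passed the test in this one. Values are CPM, counts scaled to a library total of 1000000 and between libraries by TMM, and log2 fold changes, SE and adjusted p-values are from edgeR's quasi-likelihood test over all 15186 tested genes with Benjamini-Hochberg adjustment. Of the 46 tested proteasome genes 9 rose (19.6%) and 0 fell, while 4.19% of all tested genes rose and 2.74% fell. The median log2 fold change was 0.35 over the 46 and 0.04 over all tested genes. Without adjustment, 20 of 46 had a p under 0.05 and a higher level in fortified cells, against 13.5% of all genes, and for 23 of 46 every fortified library lay above every moderate one, against 19.6%.

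The alpha ring held 4 of the 9 genes that rose, and all 7 alpha ring genes had non-overlapping groups. Psma3 measured 94.8, 89.98 and 113 CPM in the moderate mutant and 181, 244 and 249.6 in the fortified mutant libraries. That was a log2 fold change of 1.18 (SE 0.23, adjusted p = 0.0216), the largest among the 46 genes. Psma5 measured 51.5, 50.6 and 54.6 CPM in moderate and 96.6, 118 and 109 CPM in fortified mutant cells, and rose by 1.05 (SE 0.19, adjusted p = 0.0174). In both genes every fortified library was above every moderate one by a wide margin. Psma7 went from 111, 112 and 128 CPM to 211, 242 and 206 CPM, and rose by 0.91 (SE 0.19, adjusted p = 0.0240). Psma2 went from 106, 105 and 118 CPM to 162, 215 and 189 CPM, and rose by 0.78 (SE 0.20, adjusted p = 0.0401). The other 3 alpha ring genes, Psma1, Psma4 and Psma6, had log2 fold changes of 0.57 to 0.76 and did not pass; Psma6 was nearest, with an adjusted p of 0.0545 by the same edgeR test.

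In the constitutive beta ring 2 of 7 genes passed, both non-catalytic. Psmb4 measured 100.5, 101 and 114 CPM in moderate and 189, 216 and 185 CPM in fortified mutant cells, and rose by 0.90 (SE 0.15, adjusted p = 0.0119), the smallest p among the 46 genes. Psmb1 went from 123, 124 and 131 CPM to 251, 258 and 214 CPM, and rose by 0.94 (SE 0.21, adjusted p = 0.0299). Both genes kept the groups apart. The structural subunits Psmb2 and Psmb3 had values of 0.44 (SE 0.13, adjusted p = 0.0686) and 0.82 (SE 0.23, adjusted p = 0.0543), short of the threshold.

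The constitutive cutting subunits did not pass. Psmb5, which cuts after hydrophobic residues, measured 75.0, 84.6 and 89.0 CPM in moderate and 87.0, 114 and 91.6 CPM in fortified mutant cells; the groups overlapped, with a log2 fold change of 0.24 (SE 0.20, adjusted p = 0.498). Psmb6, with caspase-like activity, measured 140.4, 150.5 and 148 CPM and 206, 242 and 196 CPM, without overlap, and a log2 fold change of 0.55 (SE 0.18, adjusted p = 0.0783). Psmb7, with trypsin-like activity, measured 119, 123 and 139 CPM and 146, 218 and 191 CPM, also without overlap, and 0.54 (SE 0.21, adjusted p = 0.124). In wild type cells, at moderate and then fortified folic acid, Psmb5 measured 82.0, 88.0 and 133 CPM and 73.4, 102 and 86.1 CPM, Psmb6 177, 144 and 229 CPM and 148, 174 and 197 CPM, and Psmb7 168, 135 and 223 CPM and 121, 165 and 147 CPM, with overlap in all 3. Psmb5 was the core ring gene with the smallest change in this comparison and the single one of 14 whose groups overlapped.

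Values were smaller in the regulatory particle. Over its 6 ATPases and 11 other subunits the median log2 fold change was 0.17, against 0.77 over the 14 core ring genes. That difference between the particles was not tested. None of the 6 ATPases passed, their values running from -0.09 (Psmc2) to 0.38 (Psmc3), with 1 at an unadjusted p under 0.05. Of the 11 other subunits 2 passed, both of the lid. Psmd13 measured 68.2, 72.7 and 71.0 CPM in moderate and 118, 145 and 118 CPM in fortified mutant cells, and rose by 0.85 (SE 0.16, adjusted p = 0.0182). Psmd12 went from 71.7, 72.6 and 78.8 CPM to 98.7, 133 and 118 CPM, and rose by 0.65 (SE 0.16, adjusted p = 0.0393). The groups were apart in both. The large base scaffold Psmd2, the lid deubiquitinase Psmd14 and the ubiquitin receptor Psmd4 had log2 fold changes of -0.02, 0.33 and -0.10, with adjusted p-values by edgeR of 0.945, 0.241 and 0.702. None of the 3 base chaperones and none of the 4 core chaperones passed, the nearest being Psmg4 at 0.70 (SE 0.29, adjusted p = 0.149).

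**Figure D2:**
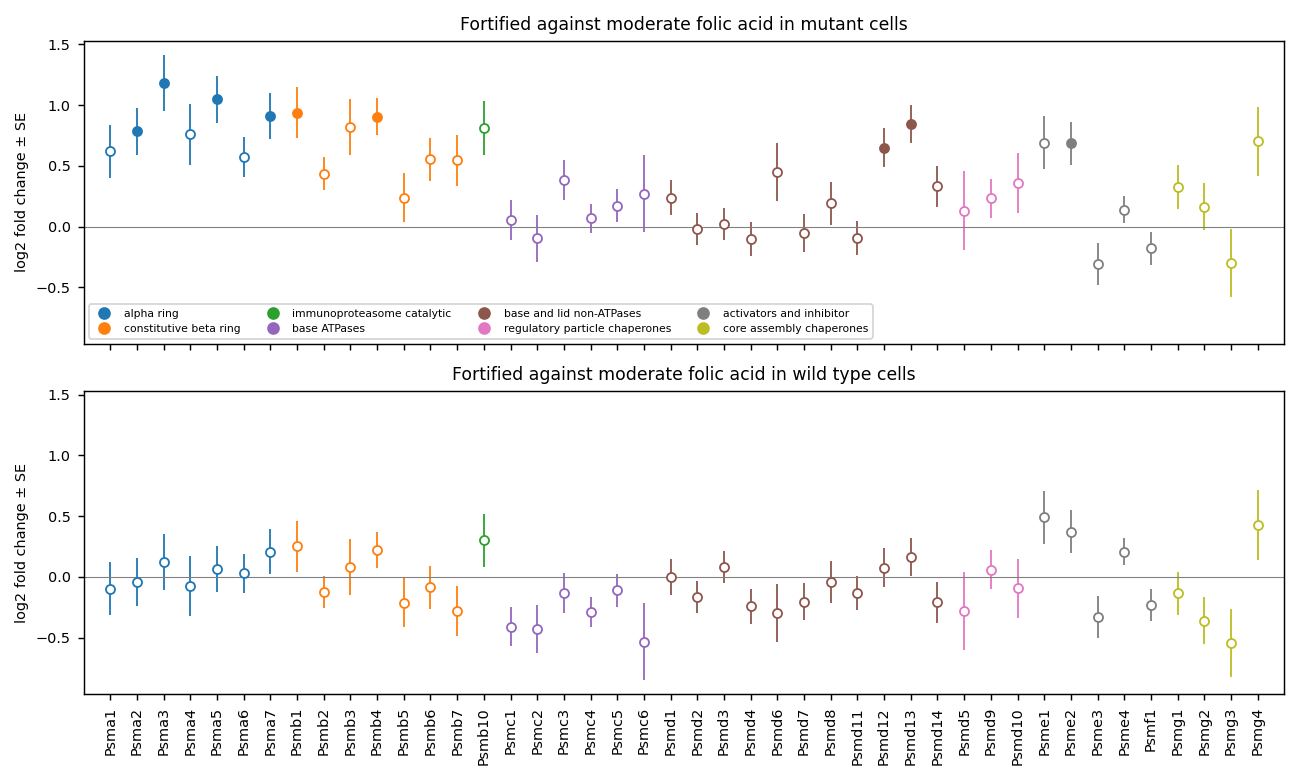
Log2 fold change ± SE from edgeR for 44 tested proteasome genes, fortified against moderate folic acid, in mutant cells (top) and wild type cells (bottom); filled circles have an adjusted p under 0.05, and the low genes Psmb8 and Psma8 are not drawn. In mutant cells the 5 highest values are of alpha and beta ring genes, with Psma3 at 1.18, while Psmb5 is at 0.24, and no circle is filled in wild type cells.

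A score per library, the mean over genes of log2 CPM minus each gene's mean over the 12 libraries, shows the core rings library by library. It was -0.49, -0.46 and -0.31 in moderate mutant cells and 0.18, 0.47 and 0.28 in fortified mutant cells. In wild type cells it was -0.05, -0.22 and 0.41 at moderate and -0.23, 0.26 and 0.16 at fortified folic acid. The wild type groups overlapped and the mutant groups did not. The core score minus that of the regulatory particle spread little among mutant libraries: -0.27, -0.31 and -0.30 at moderate and 0.25, 0.26 and 0.23 at fortified folic acid. In wild type cells it was -0.05, -0.26 and 0.11, and -0.02, 0.12 and 0.24. These scores are descriptions with no test, and the genes of a score share their libraries.

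**Figure D3:**
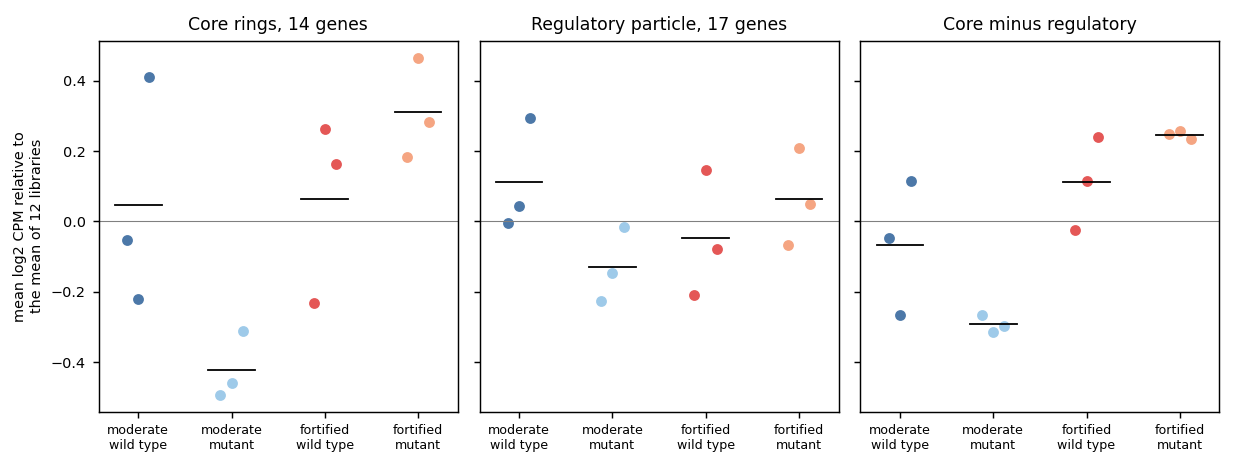
Scores on a log2 scale for the 14 core ring genes, the 17 regulatory particle genes and their difference, with a point per library and a black bar at the group mean. Moderate and fortified mutant libraries separate in the core rings and in the difference, while wild type groups overlap in all 3 panels.

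Other measures moved with this comparison. The 4 genes of dividing cells (Mki67, Top2a, Ccnb1 and Cdk1) summed to 146 to 169 TPM in moderate mutant and 233 to 451 TPM in fortified mutant libraries; all 4 were higher and Cdk1 passed, with a log2 fold change of 1.75 (SE 0.32, adjusted p = 0.0176) by edgeR. Of the other lists, endothelial genes stood at -0.70 by median log2 fold change (3 of 4 negative) and summed to 7.30 to 19.7 TPM in moderate and to 2.47 to 9.38 TPM in fortified mutant libraries. Neuronal genes had 0.84 (6 of 6 positive), with sums of 55.4 to 77.2 and 45.8 to 178 TPM. Leukocyte genes had -0.52 (6 of 6 negative), with sums of 12.6 to 87.4 and 18.1 to 24.2 TPM. Muscle genes had 0.34, with sums of 1953 to 2242 and 792 to 3544 TPM, and fibroblast genes 0.35 (8 of 8 positive), with sums of 8552 to 9068 and 7148 to 9209 TPM. No gene of these 5 lists passed. A score over 72 ribosomal protein genes was -0.53, -0.44 and -0.31 in moderate and 0.46, 0.45 and 0.17 in fortified mutant cells. The part of cell division and of other cell types in the result was not tested. Core ring genes are also short: by relative transcript length among tested genes the alpha ring lies at percentiles 6.30 to 15.9 and the beta ring at 3.22 to 7.85, while the ATPases lie at 12.6 to 24.2.

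The calls in mutant cells depended on the processing. With each library's trend on transcript length removed, 0 of 46 passed by edgeR, the core rings had a median of 0.35 and the regulatory particle one of -0.02. On log2(TPM + 1), where the median of all genes shifted to -0.23, limma called 6 higher and 6 lower, and the core rings stood 0.66 above the median of all genes, against 0.73 in the main analysis. Without the 3 libraries rich in muscle and neuronal genes, the core rings had a median of 0.55. Leaving out any moderate mutant library, or fortified mutant 2, left 0 calls. Core ring medians in those fits were 0.74, 0.72 and 0.85 without moderate mutant 1, 2 and 3, and 0.66 without fortified mutant 2. Leaving out fortified mutant 1 left 4 calls, and leaving out moderate wild type 3 gave 15. These counts are not set against the share of all tested genes called in the same settings. Over the 12 fits that each left out 1 library, the core ring median ran from 0.66 to 0.86. That of the regulatory particle ran from 0.034, with 9 of 17 genes positive, without fortified mutant 2 to 0.24 without moderate mutant 3.

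In wild type cells fortified folic acid gave no call among the 46 genes by edgeR, DESeq2 or limma, against 0.0263% of all genes by edgeR. Unadjusted p-values under 0.05 were found for 1 gene with a higher and 3 with a lower level, against 9.67% and 9.98% of all tested genes. Groups did not overlap for 2 genes higher (11% of all genes) and 4 lower (9.67%). The median log2 fold change was -0.10, and its sign turned to 0.049 without moderate wild type 3 and to 0.023 without fortified wild type 1. Without moderate wild type 3 the core rings had a median of 0.22, with 12 of 14 genes positive, and the regulatory particle one of -0.056. All 6 base ATPases were on the lower side, with a median of -0.35, and 3 of them had the unadjusted p under 0.05. Psmc1 measured 178, 164 and 228 CPM in moderate and 128, 162 and 139 CPM in fortified wild type cells, and its value was -0.41 (SE 0.16, adjusted p = 0.193). Psmc4 measured 158, 149 and 158 CPM and 116, 142 and 123 CPM, and -0.29 (SE 0.12, adjusted p = 0.212). Groups were apart in both. Psmc2 measured 146, 174 and 243 CPM and 125, 161 and 133 CPM, with overlap, and -0.43 (SE 0.19, adjusted p = 0.253). The 7 alpha ring genes had values from -0.10 to 0.21 here. Markers of cell types moved with this comparison too. Fibroblast genes stood at 1.43 by median log2 fold change, with 6 of 8 higher at an unadjusted p under 0.05, 0 past the adjusted threshold and sums of 5103 to 9610 TPM in moderate and 11265 to 16109 TPM in fortified wild type libraries. Muscle genes had -1.03 (6 of 6 negative), with sums of 870 to 3430 and 351 to 1739 TPM, and neuronal genes -1.02 (5 of 6 negative), with sums of 30.8 to 238 and 56.7 to 84.8 TPM. The part of these cell types was not tested.

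Whether folic acid acted unequally in the 2 genotypes is asked by the interaction of genotype and folic acid. Of 46 genes 0 passed by edgeR, DESeq2 or limma, and 0% of all tested genes did by edgeR; the lowest adjusted p among the 46 was 0.708. Of the 46 values 43 were positive, with a median of 0.46 against 0.04 over all tested genes, and 18 of 46 were higher with an unadjusted p under 0.05, against 4.55% of all genes. Psma3 had an interaction of 1.06 (SE 0.33, adjusted p = 0.708) and Psma5 of 0.99 (SE 0.27, adjusted p = 0.708). The difference between the genotypes was therefore not established for any proteasome gene. Marker lists had interaction medians of 1.93 for neuronal, 1.19 for muscle, 1.12 for dividing-cell and -0.85 for fibroblast genes, with 0 genes past the threshold, and their part was not tested.

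**Figure D4:**
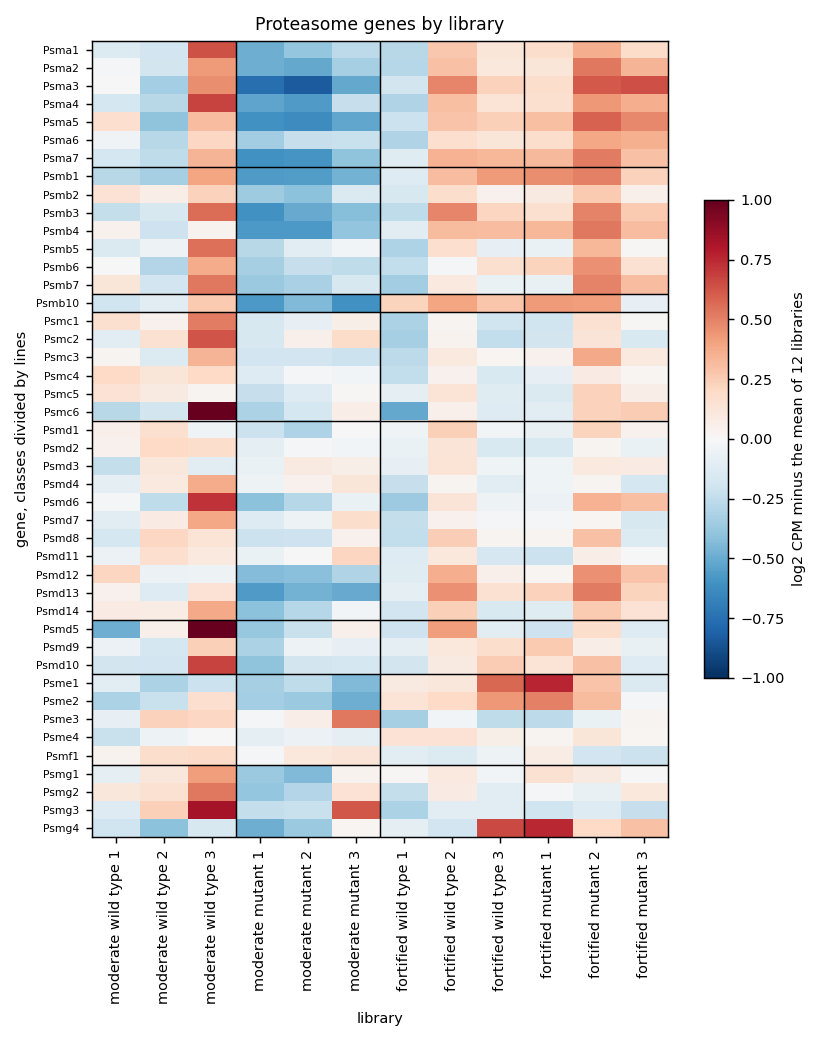
Log2 CPM of 44 tested proteasome genes minus each gene's mean over the 12 libraries, with colours clipped at -1 and 1; the low genes Psmb8 and Psma8 are left out, horizontal lines divide the classes and vertical lines the groups. Core ring genes are mostly blue in the 3 moderate mutant libraries and mostly red in the fortified mutant libraries, and moderate wild type 3 is red over most classes.

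The effect of genotype was compared next, first at moderate folic acid. No gene of the 46 passed by edgeR, DESeq2 or limma, nor did any of all tested genes by edgeR (0%), and the lowest adjusted p among the 46 was 0.588. Of the 46 values 43 were negative, with a median of -0.37 against -0.05 over all genes. An unadjusted p under 0.05 with a lower level in mutant cells was found for 17 of 46, against 5.14% of all tested genes, and 18 of 46 (39.1%) had every mutant library below every wild type one, against 6.68%. Psmd13 measured 104, 92.2 and 111 CPM in wild type and 68.2, 72.7 and 71.0 CPM in mutant cells, with a log2 fold change of -0.54 (SE 0.16, adjusted p = 0.588). Psma5 measured 88.3, 59.4 and 96.9 CPM and 51.5, 50.6 and 54.6 CPM, and -0.64 (SE 0.19, adjusted p = 0.588). Psma3 measured 160.4, 127 and 221 CPM and 94.8, 89.98 and 113 CPM, and -0.77 (SE 0.23, adjusted p = 0.588). In these 3 genes the groups did not overlap, while wild type libraries spread more than mutant ones. Psmb2 measured 138, 131 and 147 CPM and 97.9, 94.3 and 113 CPM, and -0.45 (SE 0.13, adjusted p = 0.588), again without overlap. The median over the 46 was -0.15 without moderate wild type 3, the library with the highest core ring score among wild type cells, and the core ring median was -0.28 in place of -0.51. The ribosomal protein score of that library was 0.58, against -0.34 and -0.45 in the other 2 of its group. Its dividing-cell genes summed to 115 TPM, against 439 TPM in moderate wild type 1 and 203 TPM in moderate wild type 2. Dividing-cell genes had a median log2 fold change of -0.86 (4 of 4 negative), neuronal genes -0.51 (6 of 6) and leukocyte genes -0.60 (6 of 6) in this comparison. The part of these, and of the difference in fetal sex, was not tested.

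At fortified folic acid the same 46 genes gave 0 calls by edgeR, DESeq2 or limma, and 0 at an unadjusted p under 0.05, against 0% and 3.29% of all tested genes by edgeR. Here 39 of 46 values were positive, with a median of 0.12, which ran from 0.028 without fortified wild type 1 to 0.20 without fortified wild type 2, and the lowest adjusted p was 0.939. Groups did not overlap, mutant above wild type, for 2 of 46 genes, against 4.66% of all genes, a share near the background. These were Psma5, with 67.6, 95.5 and 92.5 CPM in wild type and 96.6, 118 and 109 CPM in mutant cells, and Psma6. Psma6 measured 89.2, 124 and 119.7 CPM in wild type and 125, 144 and 141 CPM in mutant cells, a log2 fold change of 0.30 (SE 0.16, adjusted p = 0.939). Next by p was Psmb6, with 148, 174 and 197 CPM in wild type and 206, 242 and 196 CPM in mutant cells and a value of 0.31 (SE 0.18, adjusted p = 0.939). Psmb7 measured 121, 165 and 147 CPM and 146, 218 and 191 CPM, with 0.36 (SE 0.21, adjusted p = 0.939). Groups overlapped in both. Muscle genes had a median log2 fold change of 1.31 (6 of 6 positive) in this comparison, neuronal genes 1.44 (6 of 6 positive) and fibroblast genes -0.70 (7 of 8 negative, 3 of them at an unadjusted p under 0.05), and their part was not tested. Averaged over folic acid, genotype gave 0 calls and 0 unadjusted p under 0.05 among the 46, against 0% and 4.64% of all genes by edgeR, and DESeq2 and limma called 0 as well. The comparisons of a genotype at both folic acid levels use separate libraries, but each shares libraries with the folic acid comparisons.

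Fortified against moderate folic acid, averaged over both genotypes, gave 10 genes that rose and 0 that fell, against 8.9% and 8.86% of all tested genes. The 10 were Psmb4, Psmd13, Psma7, Psme2, Psma5, Psmb1, Psma3, Psme1, Psmb10 and Psmd12, with log2 fold changes from 0.36 (Psmd12) to 0.65 (Psma3). For 1 of 46 genes, Psme4, every fortified library lay above every moderate one, against 2.77% of all tested genes. This comparison shares all its libraries with the separate ones above. With the length trend removed 1 gene rose and 2 fell, and on log2(TPM + 1) limma called 6 higher and 11 lower, where the median of all genes was -0.15. Among markers, 5 of 8 fibroblast genes rose as well (median 0.86), all 4 dividing-cell genes were higher at an unadjusted p under 0.05 and 1 of them passed (median 0.71), and the endothelial gene Kdr fell by 1.40 (SE 0.42, adjusted p = 0.0393). The part of these was not tested. Counts were 4 without moderate mutant 2, 5 without fortified wild type 3 and 14 without moderate wild type 3. They are not set against the share of all tested genes called in those fits.

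Genes of antigen processing made up part of the 10. Psme1 and Psme2 encode the subunits of an interferon-inducible activator that opens the core, and lie close together on chromosome 14, at 55578123 to 55581529 on the plus strand and 55587441 to 55591113 on the minus strand of GRCm38. Psme2 measured 29.3, 31.3 and 40.9 CPM in the moderate wild type group, 28.8, 28.2 and 26.0 CPM in the moderate mutant group, 40.1, 41.9 and 49.4 CPM in the fortified wild type group and 51.9, 45.5 and 36.2 CPM in the fortified mutant group. It rose by 0.69 (SE 0.18, adjusted p = 0.0429) in mutant cells and by 0.53 (SE 0.12, adjusted p = 0.0169) averaged over genotype. Psme1 measured 30.6, 26.6 and 28.5, 26.3, 27.7 and 24.3, 35.2, 35.9 and 49.5 and 56.1, 40.4 and 30.0 CPM in the same order of groups. It rose by 0.59 (SE 0.15, adjusted p = 0.0241) averaged over genotype, and had values of 0.49 (SE 0.22, adjusted p = 0.237) in wild type and 0.69 (SE 0.22, adjusted p = 0.0736) in mutant cells, which did not pass. Fortified libraries of Psme1 overlapped moderate wild type ones through fortified mutant 3 alone.

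Psmb10, the inducible trypsin-like subunit, measured 6.42, 6.86 and 8.81 CPM in the moderate wild type group, 4.95, 5.41 and 4.85 CPM in the moderate mutant group, 8.60, 9.70 and 8.93 CPM in the fortified wild type group and 9.91, 9.82 and 6.97 CPM in the fortified mutant group. It rose by 0.56 (SE 0.16, adjusted p = 0.0321) averaged over genotype, and missed the threshold in mutant cells at 0.81 (SE 0.22, adjusted p = 0.0502). Psmb8, the inducible counterpart of Psmb5, measured 0.368, 0.668 and 1.45, 0.291, 1.03 and 0.275, 1.75, 0.929 and 1.37 and 1.20, 0.561 and 0.615 CPM in the same order. The groups overlapped throughout, and at 11 to 80 counts per library no difference was detectable: the values ran from -0.77 (SE 0.63, adjusted p = 0.939) for genotype at fortified folic acid to 0.71 (SE 0.63, adjusted p = 0.555) for folic acid in wild type cells. Psmb9, the inducible counterpart of Psmb6, was not tested and measured 0.108, 0.0257 and 0.161, 0.0625, 0.201 and 0.05003, 0.240, 0.136 and 0.131 and 0.127, 0.151 and 0.0228 CPM in the same order, from 1 to 11 counts. Psmb9 and Psmb8 lie close together on chromosome 17, from 34181987 to 34187764 on the minus and from 34197721 to 34201454 on the plus strand.

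**Figure D5:**
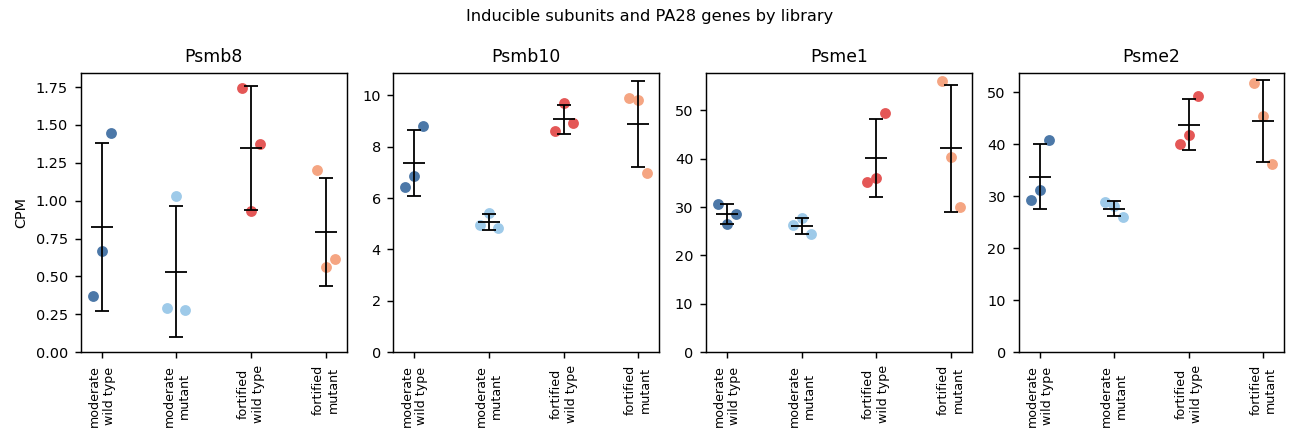
CPM of Psmb8, Psmb10, Psme1 and Psme2 in each library, with the mean and SD of the 3 libraries of a group in black. Moderate mutant libraries of Psmb10 lie between 4.85 and 5.41 CPM, below all other libraries, and Psmb8 overlaps between all groups.

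The mix of inducible and constitutive cutting subunits was compared as a ratio of TPM within a library. Psmb10 stood at 3.11% ± 0.493 (SD, n = 3) of Psmb7 in the moderate wild type group, 2.92% ± 0.336 in the moderate mutant group, 4.60% ± 0.485 in the fortified wild type group and 3.61% ± 1.17 in the fortified mutant group. For folic acid within genotype the log2 difference was 0.42, with p = 0.03 by a two-sided exact permutation test over 400 arrangements and 0.18 after Benjamini-Hochberg adjustment over the 6 ratio tests. Psmb8 stood at 0.508% ± 0.212 of Psmb5 in the moderate wild type group, 0.425% ± 0.335 in the moderate mutant group, 1.08% ± 0.491 in the fortified wild type group and 0.565% ± 0.314 in the fortified mutant group. Its log2 differences were 0.76 for folic acid (exact permutation p = 0.1) and -0.65 for genotype (p = 0.145), both 0.278 after adjustment. Psmb9 stood at 0.0615 to 0.139% of Psmb6 in the 4 group means, with adjusted exact permutation p-values of 0.695 for folic acid and 0.57 for genotype. With all libraries, none of the 6 ratios differed beyond the spread of the libraries after adjustment. When each library was left out in turn, the largest log2 difference of Psmb10 to Psmb7 by folic acid was 0.52, without fortified mutant 3. The adjusted exact permutation p in that fit was 0.03. Fortified mutant 3 had the lowest such ratio among fortified libraries, 2.65%. With all libraries the smallest p this design allows is 0.005.

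The remaining activators gave no call. Psme3 measured 154, 191 and 188 CPM in the moderate wild type group, 160.2, 170.3 and 234 CPM in the moderate mutant group, 129, 159 and 136 CPM in the fortified wild type group and 136, 155 and 166 CPM in the fortified mutant group. Its value for folic acid averaged over genotype was -0.32 (SE 0.12, adjusted p = 0.0888), opposite in sign to Psme1 and Psme2 and short of the threshold. Psme4, a large activator linked to DNA repair and spermatogenesis, measured 119.8, 135 and 139, 131, 134 and 131, 155, 155 and 145 and 143, 152 and 141 CPM, with 0.17 (SE 0.08, adjusted p = 0.143). Psme4 had the smallest coefficient of variation within groups, 4.72%, among the 47 genes with such a value, and Psmf1 had -0.20 (SE 0.09, adjusted p = 0.149).

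Genes that work with the proteasome but lie outside the name pattern were counted in the same way, from lists chosen with earlier results of these data known. Of 17 other subunits and factors, 1 rose and 0 fell with fortified folic acid in mutant cells, and their median was -0.23. A share of 5.88% rising is near the 4.19% of all tested genes. The riser was Pomp, the chaperone that matures the core particle, with 0.88 (SE 0.21, adjusted p = 0.0356). Averaged over genotype, Pomp rose by 0.46 (SE 0.15, adjusted p = 0.04996) and 3 factors fell: Zfand2a, a stress-inducible proteasome partner, by 0.49 (SE 0.12, adjusted p = 0.0225), Ubqln4, a shuttle for ubiquitinated proteins, by 0.35 (SE 0.10, adjusted p = 0.0326), and Ddi2, the protease that activates Nfe2l1, by 0.37 (SE 0.11, adjusted p = 0.0443). Those shares of 5.88% rising and 17.6% falling stand beside 8.9% and 8.86% of all tested genes. In the list of 13 genes that control proteasome expression, 1 rose and 1 fell in mutant cells (7.69% each, against 4.19% and 2.74%). Ngly1, the glycanase that Nfe2l1 needs, rose by 0.93 (SE 0.23, adjusted p = 0.0383), and Sel1l, of the ubiquitin ligase complex that turns Nfe2l1 over, had -0.89 (SE 0.18, adjusted p = 0.0234) and fell. Nfe2l1 itself had -0.86 (SE 0.31, adjusted p = 0.106) and its relative Nfe2l2 -0.81 (SE 0.36, adjusted p = 0.188), neither past the threshold. Averaged over genotype the same list had 1 gene higher and 1 lower. These shares of 7.69% each are near the 8.9% and 8.86% of all tested genes. By edgeR, Ngly1 was at 0.79 (SE 0.16, adjusted p = 0.00985) and Sel1l at -0.43 (SE 0.13, adjusted p = 0.0393).

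Of 6 genes for ubiquitin and its activation, 0 passed in mutant cells, with 2 higher and 1 lower at an unadjusted p under 0.05 (13.5% and 12.2% of all tested genes). Averaged over genotype 1 of the 6 fell (16.7%, against 8.86% of all tested genes). It was Uba6, an activating enzyme, which fell by 1.20 (SE 0.26, adjusted p = 0.0127 by edgeR). Among 16 genes of interferon signalling and antigen presentation, 0 passed in mutant cells by edgeR, with 4 higher at an unadjusted p under 0.05 (25%, against 13.5% of all tested genes). Averaged over genotype 2 rose by edgeR, the transcription factor Irf1 by 0.78 (SE 0.18, adjusted p = 0.0150) and the peptide-loading factor Tapbp by 0.80 (SE 0.25, adjusted p = 0.0461). The median of the 16 was 0.49, and the share of 12.5% rising is near the 8.9% of all tested genes. At an unadjusted p under 0.05, 7 of 16 were higher (43.8%, against 17.5% of all tested genes) and 1 was lower (6.25%, against 16.4%). For genotype averaged over folic acid, 7 of 16 were lower at that unadjusted p (43.8%, against 3.09% of all tested genes), and 0 passed. All 16 had negative values for genotype at both folic acid levels, and 0 passed. Their medians were -0.56 at moderate and -0.44 at fortified folic acid. Leukocyte genes had medians of -0.60 and -1.005 in the same 2 comparisons; their part in the interferon list was not tested.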

How the data were processed

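Polyadenylated RNA was measured in 12 libraries, 3 in each of 4 groups. The authors deposited estimated counts and TPM values per gene; the names of the deposited tables give salmon as their source, and the headers name no tool. The build named in the submitters' processing notes is mm10, while for salmon neither version nor annotation is stated in these sources. RNA was extracted with trizol and chloroform and libraries were made with a Tecan Universal Plus mRNA-Seq kit, per the labels' protocols. Columns were matched to folic acid levels by the numbers that the sample descriptions give them, since the letters B and P in the column names are unexplained. The proteasome genes, gene lists and tests were chosen with earlier results of these data known.

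The deposited estimated counts were rounded, low genes were removed with filterByExpr at a minimum count of 10 and a minimum total of 15, and 15186 of 24279 genes entered edgeR 4.0.16 (TMM, glmQLFit and glmQLFTest, R 4.3.3) with a mean per group. Threshold was an adjusted p of 0.05. At 39339190 to 48475963 counts per library, counting error is small beside a common biological coefficient of variation of 0.332, except for genes under about 100 counts, such as Psmb8. Values by library are given for the cutting subunits, their inducible counterparts and the activators, and for the 4 genes with the smallest p in each simple comparison and those that passed in mutant cells or averaged over genotype; class extremes are given by median TPM. Other proteasome genes were named for their role after their values were seen. Ratios used TPM with a pseudocount of 0.1 and exact permutation within strata. The procedure was tested on simulated data. Alternatives were DESeq2 1.42.0, median-of-ratios scaling, limma 3.58.1 on log2(TPM + 1) or log2(TPM + 0.1), no filter, a filter of 1 CPM in 3 libraries, a replicate block, only the groups compared, 3 libraries left out, each library left out, and removal of a trend on transcript length within each library (natural spline, 5 degrees of freedom, relative length from deposited counts over deposited TPM). For the ratios, a pseudocount of 1 and the ratio of counts were tried. Coordinates are those of GENCODE and RefSeq on GRCm38, the same build as mm10, and are not given for all genes.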

Additional observations from a re-analysis of the deposited data

How the results depend on the processing

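In mutant cells, fortified against moderate folic acid called 16 proteasome genes by DESeq2 and 14 when only the groups compared were fitted. It called 0 with the length trend removed, and 0 to 15 when each library was left out. Averaged over genotype it called 17 on log2(TPM + 1), 3 with the length trend removed, and 4 to 14 when each library was left out. These counts are not set against the share of all tested genes called in the same setting. They therefore do not tell a change in the proteasome genes from one in all genes. The cause was not tested. On log2(TPM + 1) and log2(TPM + 0.1), median log2 fold changes of the 46 genes were -0.14 and -0.15 for genotype at moderate folic acid, 0.010 and 0.011 for folic acid in mutant cells, -0.098 and -0.098 averaged over genotype, and 0.22 and 0.24 for the interaction. On log2(TPM + 1) the median of all tested genes was itself negative in mutant cells and averaged over genotype, as given above. In both, the median of the 46 lay above it. The medians of the 46 printed here are not taken relative to all tested genes. With the length trend removed the medians of the 46 were 0.14 in mutant cells and 0.28 for the interaction. Leaving out each library gave -0.45 to -0.15 for genotype at moderate folic acid. The ratio of Psmb9 to Psmb6 by folic acid ran from -0.011 (without moderate wild type 2) to 0.40, and that of Psmb10 to Psmb7 from 0.29 to 0.52 (without fortified mutant 3, exact permutation, adjusted p = 0.03), when each library was left out.

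The labels do not say whether replicate numbers pair the libraries. Over 18 pairs of the same number, deviations from group means correlated at -0.477 to 0.244, with a median of -0.00334. Over 36 pairs of different number they correlated at -0.378 to 0.473, with a median of 0.0198. These ranges overlap and do not settle whether libraries were paired. With the replicate block, 7 genes were called in mutant cells and 8 averaged over genotype, against 9 and 10 without it, and 0 in the other 5 comparisons as without it.

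Values of single genes that did not pass changed sign under these settings, and passed in none of them. For genotype at moderate folic acid, Psme1 had 0.038 on log2(TPM + 1), 0.039 on log2(TPM + 0.1) and 0.065 with the length trend removed. Psme4 had -0.031 without the 3 libraries, -0.17 with the length trend removed and -0.054 to 0.051 when each library was left out. Psme3 had -0.10 to 0.19 when each library was left out. Psmb8 had -1.53 to 0.045 when each library was left out. For genotype at fortified folic acid, Psme1 had -0.0063 on log2(TPM + 1), -0.0066 on log2(TPM + 0.1), -0.022 with the length trend removed and -0.19 to 0.26 when each library was left out. Psme2 had -0.031 on log2(TPM + 1), -0.031 on log2(TPM + 0.1), -0.078 with the length trend removed and -0.10 to 0.15 when each library was left out. Psmb5 had -0.019 without the 3 libraries. Psmb10 had 0.11 without the 3 libraries and -0.12 to 0.12 when each library was left out. Psme3 had -0.072 without the 3 libraries. For folic acid in wild type cells, Psmb5 had -0.34 to 0.038 when each library was left out. Psmb6 had -0.23 to 0.11 when each library was left out. For folic acid in mutant cells, Psmb5 had -0.11 on log2(TPM + 1), -0.11 on log2(TPM + 0.1) and -0.21 with the length trend removed. Psme4 had -0.19 on log2(TPM + 1) and -0.20 on log2(TPM + 0.1). On log2(TPM + 1) both Psmb5 and Psme4 lay above the median of all tested genes in that comparison.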

Other observations

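Several proteasome genes stood high in single libraries rather than in a group. Psmc6, an ATPase of the base, measured 155, 165 and 399 CPM in the moderate wild type libraries, against 150.2, 166 and 196 CPM in moderate mutant, 131, 194 and 171 CPM in fortified wild type and 174, 219 and 223 CPM in fortified mutant libraries. Psmd5, a chaperone of base assembly, measured 48.6, 70.6 and 140.5 CPM in moderate wild type libraries and at most 91.4 CPM in any other group. Both were highest in moderate wild type 3, the library that also had the highest ribosomal protein score, 0.58. Psmg3, a chaperone that helps to build the alpha ring, measured 13.3, 17.1 and 25.9 CPM in moderate wild type and 12.3, 12.4 and 22.3 CPM in moderate mutant libraries, with 1 high library in each. Its partner Psmg4 measured 6.00, 5.62 and 10.1 CPM in fortified wild type and 10.9, 7.38 and 7.86 CPM in fortified mutant libraries, high in other libraries than Psmg3. With 3 libraries in a group, such single values were not tested, and these 4 genes were chosen after their values were seen.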
